A study of Mus musculus with 12 samples.

Results

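Pi16 and 8 other genes that mark resting and adventitial fibroblasts, Dpt, Clec3b, Cd248, Pdgfra, Tcf21, Dcn, Lum and Gsn, were followed across 12 RNA-seq libraries of mouse left ventricle. These 9 genes were taken by symbol from a count table of 49492 rows, and all 9 passed the filter on low counts that left 15542 genes. The 4 groups of 3 libraries were Alox5ko_TAC, Alox5ko_NS, WT_TAC and WT_NS. Alox5ko is a knockout of Alox5, the gene of arachidonate 5-lipoxygenase, and WT is wild type. TAC stands for transverse aortic constriction, in which surgery narrows the aorta and puts the left ventricle under pressure overload. NS is not spelled out in the labels and is used here as a name for libraries without TAC. The labels give the genotype with no Cre driver, strain, age or sex, while the design text speaks of a cardiac deficiency. Whether every library is a different animal is not stated, so a p-value here measures the spread between libraries. Pi16 was chosen for its rise with TAC in these libraries, so its TAC values are a description with no test. The other 8 were chosen as markers of the cell type. They and all gene lists below were picked with earlier results of these data known. Their counts beside the share over all genes are thus not independent of these data. The question was whether Pi16 is higher with TAC alone or together with the other 8.

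Resting fibroblasts of the heart lie between the myocytes and in the adventitia around vessels, where they keep up the collagen matrix. After pressure overload a share of them becomes activated and deposits more matrix. Pi16 is a secreted protein of the CAP superfamily that marks an adventitial class of fibroblasts in mouse tissues, and it has also been described as a protein that the mouse heart secretes.

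Library totals were 20889431 to 27311196 counts. Alox5 stood at 0.934 to 1.46 CPM in the 6 Alox5ko libraries, against 9.56 to 13.9 CPM in the 6 WT libraries, so the genotype labels held in every library. Unless another unit is named, levels are CPM, in which counts are divided by the TMM-scaled library total. The tissue was checked as heart muscle by the cardiomyocyte gene Myh6. It averaged 114608 CPM by library total in Alox5ko_TAC, 101781 in Alox5ko_NS, 111488 in WT_TAC and 108775 in WT_NS. As a gene of cardiomyocytes in general, Myh6 does not tell the ventricle from the atria. In bulk tissue, fewer cells of a type and less RNA per cell cannot be told apart, which holds for every level below.

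Pi16 (chromosome 17, bases 29318877 to 29329413 of the mm10 build, plus strand) had 50.6, 68.3 and 50.6 CPM in the Alox5ko_TAC libraries, against 28.2, 23.6 and 24.1 CPM in Alox5ko_NS. It had 94.1, 54.2 and 74.5 CPM in WT_TAC, against 29.0, 26.4 and 23.6 CPM in WT_NS. Every TAC library lay above every library without TAC, and WT_TAC 1 was the highest of all 12. The means were 56.5 ± 10.2 CPM in Alox5ko_TAC, 25.3 ± 2.54 in Alox5ko_NS, 74.25 ± 19.98 in WT_TAC and 26.3 ± 2.72 in WT_NS (SD, n = 3 each). The fitted log2 fold change with TAC was 1.16 in Alox5ko (SE 0.189, 2.23-fold) and 1.49 in WT (SE 0.190, 2.82-fold). Among the 15542 genes tested, these folds stood at place 151 from the highest in Alox5ko and at place 55 in WT. The counts behind the levels were 542 to 2004 per library. In the GENCODE M21 annotation, an antisense gene, AC162182.1, shares exon bases with Pi16, whose annotated span is longer than the counted one. Overlap with the counted exons was not tested, and whether counting used strand is not given in the sources used here. Whether reads of that pair were mixed thus cannot be told.

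**Figure D1:**
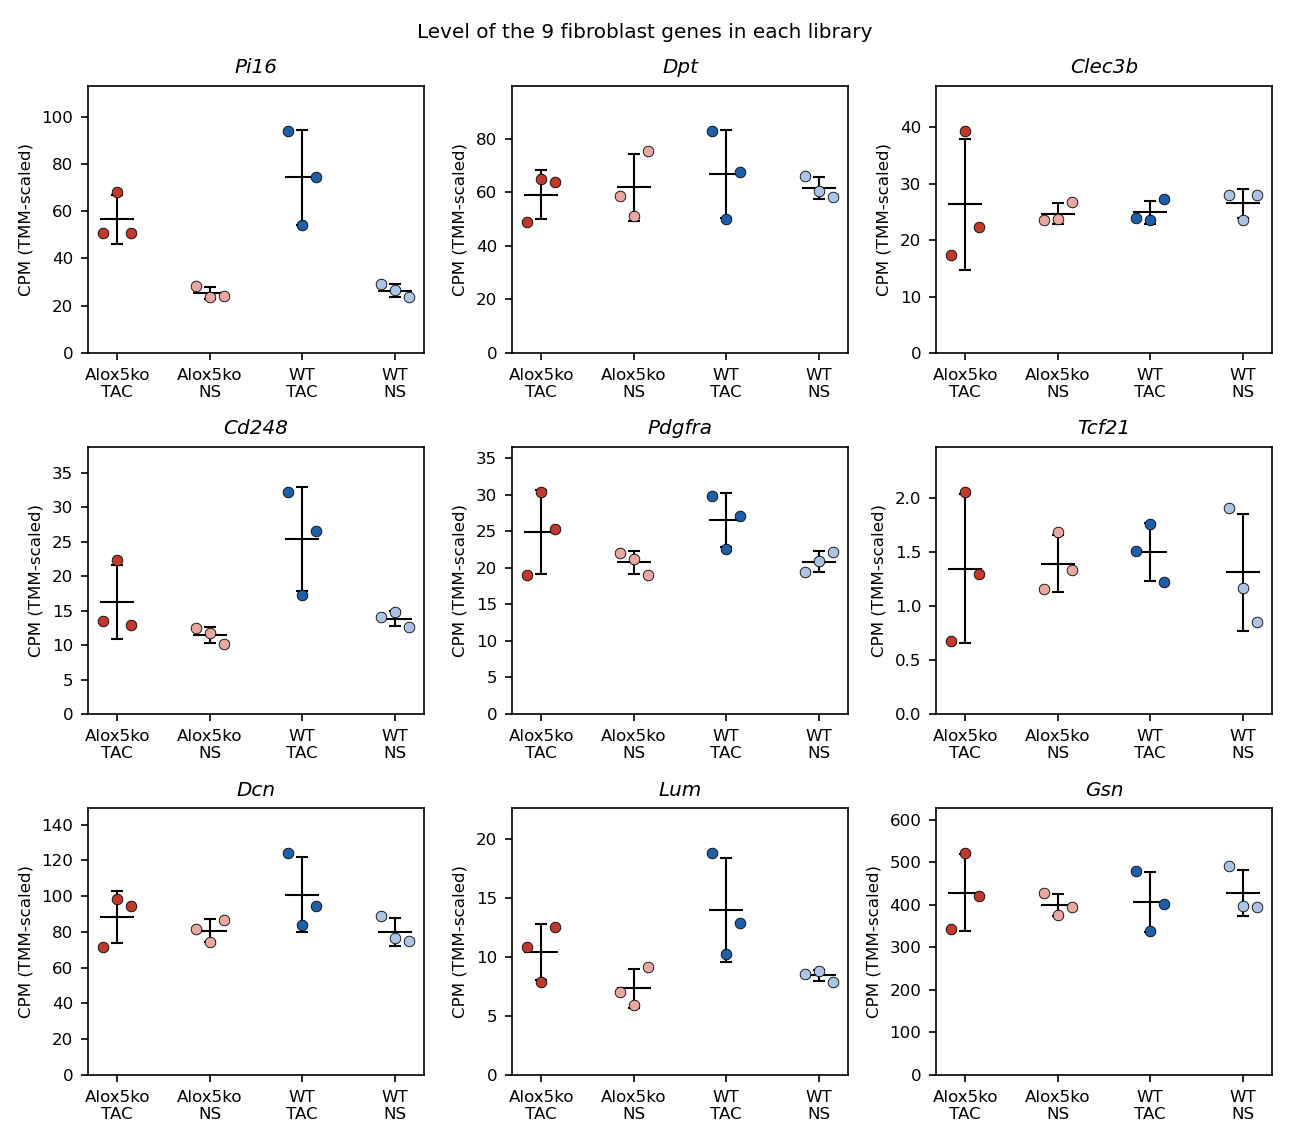
Level of each of the 9 genes (CPM, TMM-scaled; linear axes from 0) in the 12 libraries by group; points are libraries, lines the mean and bars the SD of 3. Pi16 is at 50.6 to 94.1 CPM in the 6 TAC libraries and at 23.6 to 29.0 CPM in the 6 without TAC, while the points of Dpt, Clec3b, Tcf21, Dcn and Gsn overlap between TAC and NS in both genotypes.

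The stretch around the annotated start is shown for Pi16 and for Dpt, which differed in their TAC values. Both come from RefSeq windows of GRCm38.p6 on the plus strand, from 250 bases before to 30 bases after the start, at chr17:29318632-29318911 for Pi16 and chr1:164796413-164796692 for Dpt. Capitals mark CAGCTG, the E-box recognised by Tcf21 and other basic helix-loop-helix factors.
Pi16: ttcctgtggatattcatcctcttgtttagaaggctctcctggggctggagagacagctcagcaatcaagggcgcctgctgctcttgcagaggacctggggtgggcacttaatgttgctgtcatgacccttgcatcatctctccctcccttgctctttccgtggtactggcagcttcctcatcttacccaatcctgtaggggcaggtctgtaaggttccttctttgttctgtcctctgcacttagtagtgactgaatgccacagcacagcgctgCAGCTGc
Dpt: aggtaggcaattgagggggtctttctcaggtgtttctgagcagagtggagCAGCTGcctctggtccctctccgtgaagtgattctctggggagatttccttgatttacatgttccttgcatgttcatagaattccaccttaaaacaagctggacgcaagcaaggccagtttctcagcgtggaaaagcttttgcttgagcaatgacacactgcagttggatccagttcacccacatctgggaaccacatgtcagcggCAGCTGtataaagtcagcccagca
The window of Pi16 held the motif at position +24 and that of Dpt at -200 and +7, counted from the start as +1. Searched on both strands, CAGCTG was in 16.3% of 32851 RefSeq promoter windows of 300 bases. Windows were at hand for 5 of the 9 genes, and of the other 3, those of Gsn held CAGCTG while those of Pdgfra and Tcf21 did not. The AP-1 motif TGANTCA (7.81% of all windows) and the TEAD motif GGAATG (14.7%) were in none of the 5 genes' windows. A match is a description of letters, and a missing match says only that the letters are not in the window.

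Cd248 (chromosome 19, bases 5068078 to 5070637), which encodes endosialin, a transmembrane glycoprotein of perivascular and stromal cells, was the member nearest to Pi16 in its TAC values. It had 13.5, 22.4 and 12.9 CPM in Alox5ko_TAC, against 12.4, 11.8 and 10.2 CPM in Alox5ko_NS. In WT_TAC it had 32.3, 17.3 and 26.6 CPM, against 14.0, 14.8 and 12.7 CPM in WT_NS. The TAC libraries lay above those without TAC in both genotypes, in Alox5ko by a gap under 1 CPM. Its log2 fold change was 0.50 in Alox5ko (SE 0.252, edgeR adjusted p = 0.400) and 0.88 in WT (SE 0.247, edgeR adjusted p = 0.161), neither past the threshold of 0.05.

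Lum (chromosome 10, bases 97565501 to 97572703), the gene of lumican, a small leucine-rich proteoglycan that binds collagen fibrils, had 10.8, 7.91 and 12.5 CPM in Alox5ko_TAC, against 7.03, 5.89 and 9.12 CPM in Alox5ko_NS. It had 18.8, 10.2 and 12.8 CPM in WT_TAC, against 8.59, 8.82 and 7.90 CPM in WT_NS. The groups overlapped in Alox5ko and did not in WT. The log2 fold changes were 0.51 in Alox5ko (SE 0.232, edgeR adjusted p = 0.337) and 0.72 in WT (SE 0.227, edgeR adjusted p = 0.194). Dcn, the gene of decorin and the neighbour of Lum on chromosome 10, ends 47338 bases before Lum begins. It had 71.5 to 98.3 CPM in Alox5ko_TAC, 74.2 to 86.6 in Alox5ko_NS, 83.8 to 124 in WT_TAC and 74.8 to 89.0 in WT_NS. Its log2 fold changes were smaller, 0.13 in Alox5ko (SE 0.145) and 0.33 in WT (SE 0.145).

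Pdgfra, the receptor for platelet-derived growth factors that marks fibroblasts in the heart (chromosome 5, bases 75152292 to 75198215), had 19.0, 30.4 and 25.3 CPM in Alox5ko_TAC, against 22.1, 21.2 and 19.0 CPM in Alox5ko_NS. It had 29.9, 22.6 and 27.1 CPM in WT_TAC, against 19.4, 21.0 and 22.2 CPM in WT_NS. The WT groups did not overlap, by a gap under 1 CPM, and the Alox5ko groups did. Its log2 fold changes were 0.26 in Alox5ko (SE 0.140, edgeR adjusted p = 0.411) and 0.34 in WT (SE 0.140, edgeR adjusted p = 0.320).

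The remaining 4 genes had log2 fold changes between -0.09 and 0.20 in the TAC comparisons of both genotypes, none called, and overlapping groups in both. Dpt (dermatopontin, a matrix protein that binds decorin) had 48.8 to 64.9 CPM in Alox5ko_TAC, 51.2 to 75.6 in Alox5ko_NS, 50.2 to 83.1 in WT_TAC and 58.3 to 66.2 in WT_NS. Clec3b (tetranectin, a secreted lectin that binds plasminogen) had 17.3 to 39.4 CPM in Alox5ko_TAC, 23.6 to 26.8 in Alox5ko_NS, 23.6 to 27.3 in WT_TAC and 23.6 to 28.0 in WT_NS. The spread of Clec3b came from Alox5ko_TAC, whose library 2 was the highest and library 1 the lowest of all 12. Gsn (gelsolin, an actin-severing protein not limited to fibroblasts) had 342 to 523 CPM in Alox5ko_TAC, 377 to 428 in Alox5ko_NS, 338 to 479 in WT_TAC and 395 to 490 in WT_NS. Tcf21, a transcription factor needed for cardiac fibroblasts to form, was the lowest, at 0.679 to 2.06 CPM over all 12 libraries and 16 to 45 counts per library. The 95% intervals of the log2 fold change of Dpt were -0.49 to 0.36 in Alox5ko and -0.30 to 0.54 in WT. Those of Tcf21 were wider, -0.78 to 0.66 in Alox5ko and -0.53 to 0.92 in WT.

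Counted without Pi16, 0 of the other 8 genes were called with TAC in Alox5ko, where 1.34% of the genes tested were called, and 0 of 8 in WT, where 0.766% were called. These counts of 0 moved with the processing. Without the low-count filter, Cd248 (edgeR adjusted p = 0.0465), Dcn (0.0171) and Lum (2.08e-05) passed the threshold in WT, and Lum (0.0127) in Alox5ko. Under DESeq2, Cd248 (adjusted p = 0.00294) and Lum (0.0343) passed it in WT, and without WT_TAC 2, Cd248 did (edgeR adjusted p = 0.0310). More genes were also called over the whole table without the filter and under DESeq2, in every comparison counted in the last section. The median log2 fold change of the 8 was 0.11 in Alox5ko and 0.26 in WT, with 6 of 8 positive in each, beside a median over all genes tested of 0.00 in both. In Alox5ko, 1 of the 8, Cd248, was higher with TAC without overlap of the groups, beside 8.98% of all genes tested. In WT, Cd248, Pdgfra and Lum were, beside 10.1% of all genes tested. Of the 8, 1 gene, Cd248, separated upwards in both genotypes, beside 2.32% of all genes tested. Under the mean of both TAC responses, 8 of 8 were positive, beside 50.2% of all genes tested, with a median of 0.15. The smallest of these values, 0.00236 for Clec3b, turned negative with DESeq2 size factors, without the filter, under DESeq2, with the replicate block and in 5 of 12 fits that left out 1 library. With 1 library left out, Gsn also turned negative in 5 fits, Dpt in 4 and Tcf21 in 3. Of the 8, 1 was called, beside 5.1% of all genes tested. That gene was Lum, which rose by 0.62 on the log2 scale (SE 0.162, edgeR adjusted p = 0.0487). The call of Lum was lost in 8 of 12 fits that left out 1 library, with an adjusted p of 0.0100 to 0.123 over the 12; these libraries were all 3 of WT_NS, WT_TAC 3, Alox5ko_NS 1 and 2, and Alox5ko_TAC 1 and 3. Cd248 had a pooled value of 0.69 (SE 0.176, edgeR adjusted p = 0.0522). It passed the threshold without WT_TAC 2, Alox5ko_TAC 2 or Alox5ko_TAC 3, under DESeq2 (adjusted p = 0.000146) and without the filter (edgeR adjusted p = 0.0129). Pdgfra passed it without WT_TAC 2 (edgeR adjusted p = 0.0468), without Alox5ko_TAC 1 (0.0156) and without the filter (0.00376), and Dcn without the filter (0.0137).

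**Figure D2:**
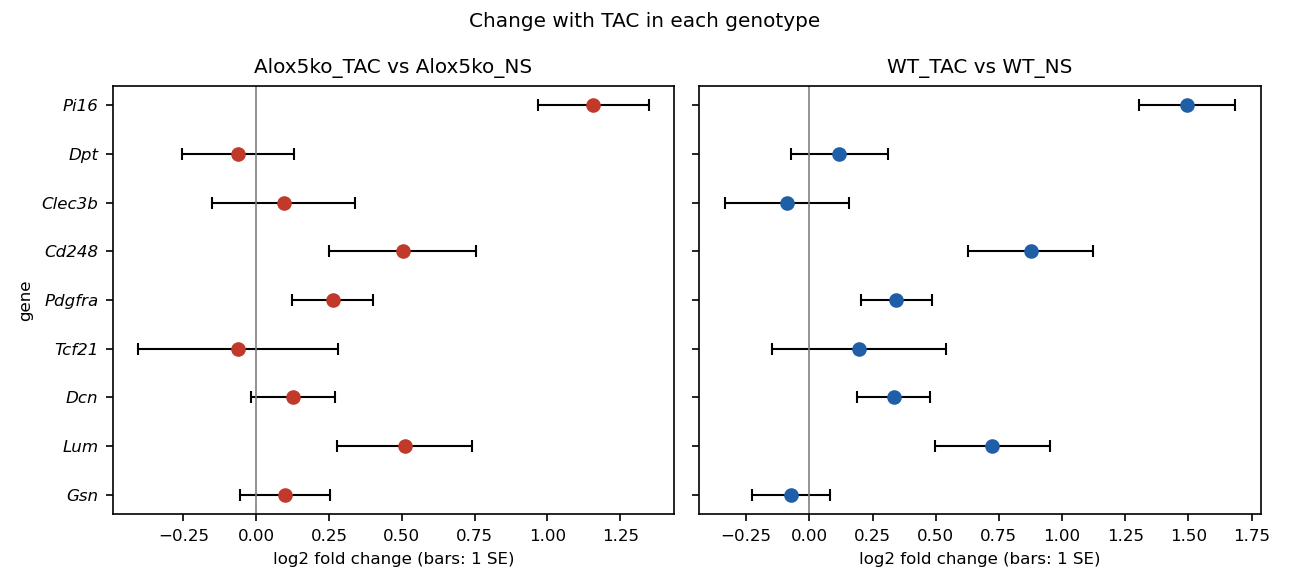
Log2 fold change with TAC of the 9 genes in Alox5ko (left, red) and WT (right, blue), with bars of 1 SE from the edgeR fit; the vertical line marks 0. Pi16 stands at 1.16 and 1.49, Cd248 at 0.50 and 0.88 and Lum at 0.51 and 0.72, and Dpt, Clec3b, Tcf21 and Gsn stay within 0.20 of 0.

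Pi16 was then set against the other 8 genes within each library, as the log2 level of Pi16 minus the mean log2 level of the 8. This difference was 1.26, 1.04 and 0.90 in Alox5ko_TAC, against 0.24, 0.02 and -0.06 in Alox5ko_NS. It was 1.36, 1.04 and 1.28 in WT_TAC, against 0.06, 0.10 and 0.01 in WT_NS. No TAC library fell within the range of the libraries without TAC. The TAC minus NS difference was 1.001 in Alox5ko and 1.17 in WT, where the level of Pi16 alone differed by 1.15 and 1.46 and the mean of the other 8 by 0.15 and 0.29. The pooled SD between libraries of a group was 0.257 for Pi16 alone and 0.149 for the difference. As a share of the summed CPM of the other 8, Pi16 amounted to 8.69 ± 0.960% in Alox5ko_TAC, 4.16 ± 0.289% in Alox5ko_NS, 11.0 ± 1.02% in WT_TAC and 4.12 ± 0.233% in WT_NS (SD, n = 3 each). Gsn, with group means of 400 to 429 CPM, was the largest part of that sum, so the share mainly sets Pi16 against Gsn. With the 20 tested genes of an adventitial fibroblast list in place of the 8, the TAC minus NS difference was 0.93 in Alox5ko and 1.19 in WT. These values describe Pi16 by the contrast it was chosen on and carry no test.

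**Figure D3:**
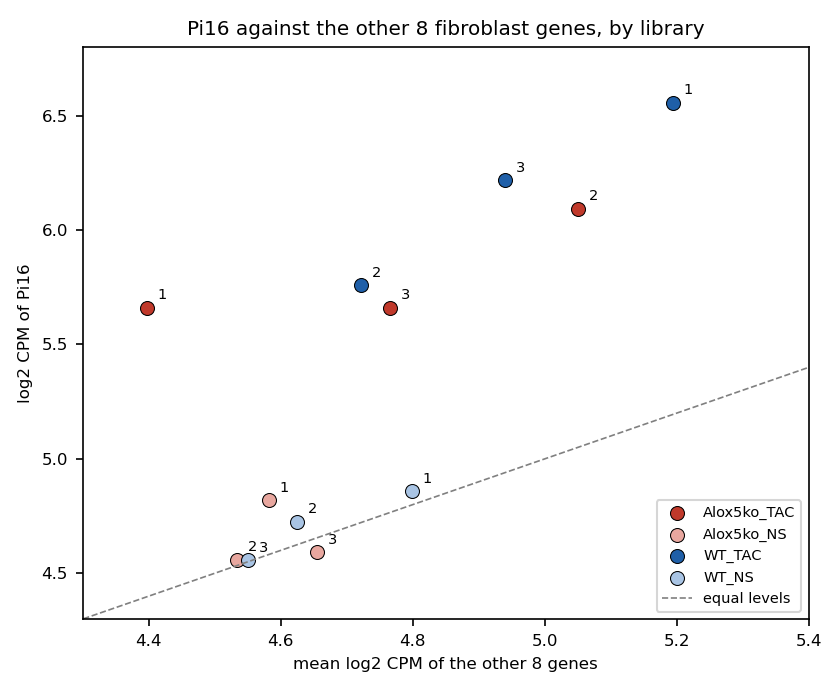
Log2 CPM of Pi16 (vertical) against the mean log2 CPM of the other 8 genes (horizontal) in the 12 libraries, numbered by replicate; the dashed line marks equal values. The 6 TAC libraries lie 0.90 to 1.36 above the line and the 6 without TAC lie between 0.06 below and 0.24 above it.

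Within each TAC group, most of the 9 genes were high in 1 library and low in another. In WT_TAC 1, 8 of 9 were above their group mean, and in WT_TAC 2, 1 of 9. In Alox5ko_TAC 2, 8 of 9 were above it, and in Alox5ko_TAC 1, 1 of 9. Library 3 of each TAC group had 5 of 9. Without TAC, WT_NS 1, 2 and 3 had 8, 4 and 2 of 9, and Alox5ko_NS 1, 2 and 3 had 5, 3 and 4. The exception in Alox5ko_TAC 2 was Lum, which at 7.91 CPM was lowest there of the 3. A list of activated fibroblast genes, such as Postn, Cilp and Fn1, summed to 561, 329 and 566 CPM by library total in Alox5ko_TAC 1, 2 and 3. That library 2, with the highest level of the resting markers, thus had the lowest sum of activated genes in its group. In WT_TAC 1, 2 and 3 the same list summed to 864, 420 and 428 CPM, so that library 1 was high on both. Without TAC the list summed to 217 to 235 CPM in Alox5ko_NS and to 293 to 389 CPM in WT_NS. By library total, the other 8 genes summed to 518 to 799 CPM in Alox5ko_TAC, 556 to 624 in Alox5ko_NS, 550 to 809 in WT_TAC and 606 to 740 in WT_NS. The part of the activated fibroblast genes in the values of Pi16 was not tested.

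Per length, in the deposited RPKM values, the 9 genes had the same order of mean levels in all 4 groups: Gsn, Dcn, Dpt, Clec3b, Pi16, Cd248, Lum, Pdgfra and Tcf21. Gsn averaged 136 RPKM in Alox5ko_TAC, 123 in Alox5ko_NS, 130 in WT_TAC and 139 in WT_NS, above every other gene with no overlap. Tcf21 averaged 1.10, 1.10, 1.23 and 1.10 RPKM in the same groups. The ranges of Dcn and Dpt overlapped in each group, as did those of Cd248 and Lum in every group but WT_NS. Pi16 averaged 14.1 ± 2.78 RPKM in Alox5ko_TAC, 6.16 ± 0.694 in Alox5ko_NS, 18.8 ± 5.21 in WT_TAC and 6.78 ± 0.767 in WT_NS (SD, n = 3 each). In both TAC groups its range reached into that of Clec3b, the next gene above, and in both NS groups it did not. It lay above that of Cd248, the next gene below, in each group.

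Other genes of these fibroblasts were read from lists that leave the 9 out, under the mean of both TAC responses. Of 20 tested adventitial fibroblast genes, 5 rose and 0 fell, with a median log2 fold change of 0.21, beside 2.9% of all genes called higher and 2.19% called lower. Fbln2, the matrix protein fibulin 2, rose by 0.62 (SE 0.0866, edgeR adjusted p = 0.000833). Ackr3, an atypical chemokine receptor, rose by 0.59 and Pcolce2, an enhancer of procollagen processing, by 0.41. Igfbp6, which binds insulin-like growth factors, rose by 0.66, and Mfap5, a microfibril protein, by 1.10. The call of Mfap5 (edgeR adjusted p = 0.0430) was lost in 9 of 12 fits with 1 library left out, and those of the other 4 in none. The count of the list ran from 4 to 8 with 1 library left out, the highest without WT_TAC 2. Per genotype, 2 of the 20 were called higher in Alox5ko, beside 0.733% of all genes tested, and 0 in WT, beside 0.476%. In Alox5ko these were Fbln2 at 0.75 (edgeR adjusted p = 0.00715) and Ackr3 at 0.75 (edgeR adjusted p = 0.0277). In WT, Fbln2 had 0.48 (edgeR adjusted p = 0.0875) and Ackr3 0.43 (edgeR adjusted p = 0.235). The difference between genotypes was past the threshold for 0 of the 20.

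Of 24 resident cardiac fibroblast genes, 2 rose and 0 fell, with a median of 0.29, beside the same 2.9% of all genes called higher and 2.19% called lower. These were Serpinf1, a secreted serpin, which rose by 0.84 (edgeR adjusted p = 0.0251), and Islr, which rose by 0.40 (edgeR adjusted p = 0.0396). Leaving out 1 library lost the call of Serpinf1 in 7 of 12 fits and that of Islr in 8, and the count of the list ran from 0 to 8. The count was 8 without WT_TAC 2, and it was 0 without WT_NS 2, WT_NS 3, Alox5ko_NS 2 or Alox5ko_TAC 3. Of 17 tested activated fibroblast genes, 5 rose and 0 fell, against that same background of 2.9% higher and 2.19% lower. Their median of 0.92 was the highest of the 3 fibroblast lists. Cilp, a cartilage matrix protein induced in stressed heart fibroblasts, rose by 2.38 (edgeR adjusted p = 0.0153) and Fn1, fibronectin, by 0.61 (edgeR adjusted p = 0.0128). Thbs4 rose by 2.76, Ltbp2 by 2.01 and Ctgf by 1.02. Leaving out 1 library lost the call of Thbs4 and Ctgf in 9 of 12 fits each, of Ltbp2 in 6, of Cilp in 1 (without WT_NS 3) and of Fn1 in 0. The count of the list ran from 1, without WT_NS 3, to 9, without Alox5ko_TAC 2.

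The families of single members were read in the same way. Over all genes tested, 2.9% were called higher and 2.19% lower under the pooled TAC effect. Of the 11 small leucine-rich proteoglycans, the family of Dcn and Lum, 7 were tested, leaving out Dcn and Lum. Bgn, biglycan, rose by 0.73 (edgeR adjusted p = 0.0482, lost in 9 of 12 fits) and Ogn, osteoglycin, fell by 0.50 (edgeR adjusted p = 0.00886, lost in none). Aspn had 0.48 and Prelp 0.43, neither called. The count of 2 in this list became 5 under DESeq2, whose count over all genes for the pooled effect is not given here. It became 4 without WT_TAC 2. It became 1 in 9 of 12 fits with 1 library left out, all but those without WT_TAC 1, WT_TAC 2 or Alox5ko_TAC 2. Of 13 other CAP superfamily genes, the family of Pi16, 5 were tested and 0 called. Glipr2 had the smallest p of them, at -0.34 (edgeR adjusted p = 0.161). Of 6 other genes of the platelet-derived growth factor system, whose ligands bind Pdgfra, 0 were called, and Pdgfd had the smallest p, at 0.19 (edgeR adjusted p = 0.341).

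**Figure D4:**
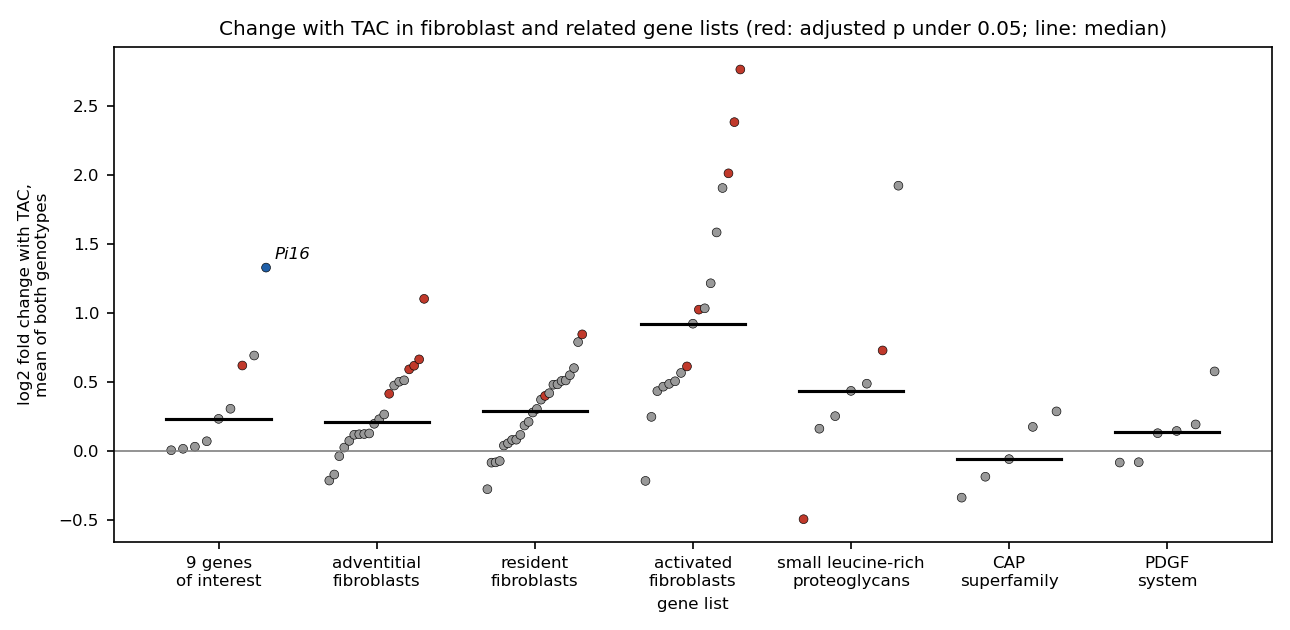
Log2 fold change with TAC, as the mean of both genotypes, for the 9 genes and for 6 lists that leave them out; each point is 1 tested gene, red points have an edgeR adjusted p under 0.05 and lines are medians. Pi16 (blue, 1.33) is the highest of the 9, and among the adventitial list Mfap5 at 1.10 is the highest.

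The genes most like Pi16 were those with the smallest root mean square difference from it in centred log2 CPM over the 12 libraries, among 10445 candidates. They were Svep1, Sardh, Fibin, Itgbl1, Ahnak2, Ssc5d, C4b, Prg4, Igfbp6 and Cd248, with differences of 0.299 to 0.367. Cd248 was the only one of the other 8 markers among these 10. Of the others, Lum stood at place 68, Pdgfra at 260, Dcn at 393, Dpt at 2606, Gsn at 3053, Clec3b at 6183 and Tcf21 at 7582. Svep1, a large matrix adhesion protein, was the nearest. Its mean level was 8.72 CPM in Alox5ko_TAC, 4.23 in Alox5ko_NS, 10.1 in WT_TAC and 5.22 in WT_NS. Prg4, the lubricant proteoglycan 4, had 50.5 CPM in Alox5ko_TAC, 23.4 in Alox5ko_NS, 82.2 in WT_TAC and 24.7 in WT_NS. All of the 10 but Igfbp6 shared with Pi16 their highest level in WT_TAC 1. Reads of C4b may be shared with its near-identical paralog, so its place is uncertain. With 1 library left out, 5 to 10 of the 10 genes stayed among the nearest 10, the fewest without Alox5ko_TAC 2, where Cd248 stood at place 33. Cd248 was outside the nearest 10 in 7 of the 12 fits, and its place ran from 7 to 33. These distances describe 12 libraries that share the TAC and NS groups on which Pi16 was chosen.

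Between genotypes, which the choice of Pi16 did not use although the libraries are the same, 0 of the 9 genes were called. In Alox5ko_TAC vs WT_TAC, where 0.109% of the genes tested were called, all 9 had overlapping groups, while 12.3% of all genes tested had groups without overlap in either direction. Pi16 had a log2 fold change of -0.39 (SE 0.183, 95% interval -0.80 to 0.01, edgeR adjusted p = 0.606). Cd248 had -0.64 (SE 0.244, edgeR adjusted p = 0.502) and Lum -0.42 (edgeR adjusted p = 0.654), and the other 6 lay between -0.19 and 0.08. Without the low-count filter, Pi16 passed the threshold (-0.39, edgeR adjusted p = 0.0440), and it did not in the fits that kept the filter. In this comparison too, more genes were called over the whole table without the filter, as counted in the last section. In Alox5ko_NS vs WT_NS, where 0.0386% of the genes tested were called, Pi16 had -0.06 (SE 0.192, edgeR adjusted p = 0.976). Cd248 had -0.27 (SE 0.254, edgeR adjusted p = 0.889) and was the only one of the 9 whose groups did not overlap there, beside 7.45% of all genes tested that were lower without overlap. The interaction, the response of Alox5ko to TAC less that of WT, was -0.34 for Pi16 (SE 0.265, 95% interval -0.92 to 0.25, edgeR adjusted p = 0.9997). Of the 9 genes, 7 had a smaller response in Alox5ko by this value and 0 were called. Over all genes tested, 48.8% had a positive value. Of the 7, Dpt, Pdgfra, Tcf21 and Lum changed sign in at least 1 fit that left out 1 library. Over all 15542 genes, edgeR called 0, with 836 (5.38%) at an unadjusted p under 0.05, and DESeq2 called 1. A p that misses the threshold does not show that the genotypes are alike.

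**Figure D5:**
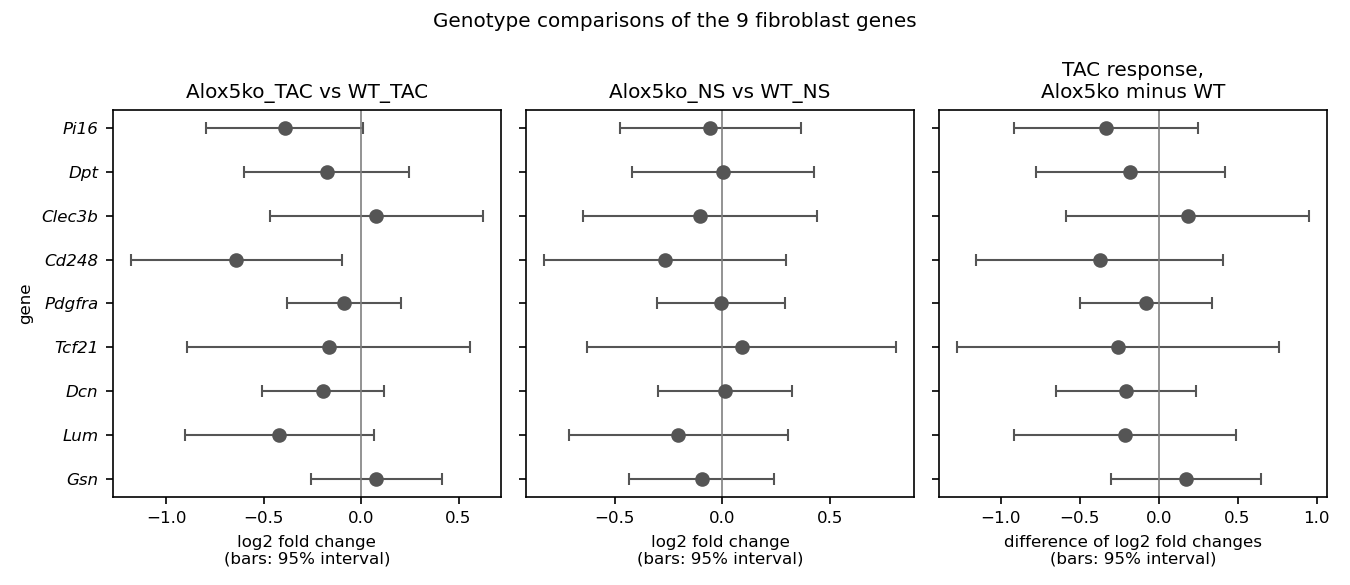
Log2 fold change of the 9 genes in Alox5ko_TAC vs WT_TAC, in Alox5ko_NS vs WT_NS, and the response of Alox5ko to TAC less that of WT, with bars of the 95% interval. Every interval spans 0 but that of Cd248 in Alox5ko_TAC vs WT_TAC (-1.18 to -0.10), which is not past the threshold after adjustment.

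Markers of other cells were followed beside these values, with all levels and sums in CPM by library total. The 8 endothelial genes summed to 479 to 546 CPM by library total in Alox5ko_TAC, 370 to 473 in Alox5ko_NS, 529 to 634 in WT_TAC and 514 to 562 in WT_NS, with none of the 8 at 0 in any library and 0 called with TAC. The 10 macrophage genes summed to 148 to 189 CPM in Alox5ko_TAC, 123 to 165 in Alox5ko_NS, 117 to 167 in WT_TAC and 152 to 173 in WT_NS, with 0 called. The 9 epicardial and mesothelial genes summed to 3.84 to 9.13 CPM over the 12 libraries. Tested were 10 smooth muscle and pericyte genes, 5 of Schwann cells, 3 epicardial, 2 of adipocytes, 2 of neutrophils and 1 of lymphocytes. Of these, 0 were called under the pooled TAC effect. Among 4 tested atrial genes 1 was, Nppa, a natriuretic peptide gene of the stressed ventricle, which rose by 1.94 (edgeR adjusted p = 0.0253). Over all genes tested, 5.1% were called under that effect. Mitochondrial genes took 14.6 to 16.8% of the counts in Alox5ko_TAC, 18.2 to 21.4% in Alox5ko_NS, 15.7 to 17.3% in WT_TAC and 16.5 to 18.1% in WT_NS. The 7 neutrophil genes summed to 1.70 to 3.52 CPM in Alox5ko_TAC, 4.26 to 5.63 in Alox5ko_NS, 1.45 to 3.83 in WT_TAC and 2.31 to 8.39 in WT_NS, with Ly6g at 0 in every library. The TAC and NS libraries of Alox5ko thus did not overlap in the endothelial sum, the mitochondrial share and the neutrophil sum. The resident fibroblast list summed to 1074 to 1297 CPM in Alox5ko_TAC and 821 to 962 in Alox5ko_NS, without overlap. In WT it summed to 1103 to 1987 CPM with TAC and 1157 to 1287 without, with overlap. The proteoglycan and CAP lists likewise separated in Alox5ko alone. The adventitial list overlapped in both genotypes and the activated list in neither. The 6 Schwann cell genes summed to 3.44 to 5.79 CPM in Alox5ko_TAC, 4.71 to 6.04 in Alox5ko_NS, 4.86 to 6.03 in WT_TAC and 6.39 to 7.50 in WT_NS. The 6 adipocyte genes summed to 0.252 to 3.68 CPM in Alox5ko_TAC, 0.367 to 1.05 in Alox5ko_NS, 0.388 to 0.654 in WT_TAC and 1.27 to 3.09 in WT_NS. The 5 atrial genes summed to 284 to 1314 CPM in Alox5ko_TAC, 170 to 289 in Alox5ko_NS, 637 to 1328 in WT_TAC and 180 to 357 in WT_NS. The TAC and NS libraries of WT did not overlap in the Schwann cell, adipocyte and atrial sums. Of single genes tested, 8.98% in Alox5ko and 10.1% in WT were higher with TAC without overlap of the groups. The share that was lower without overlap is not given here. No adipocyte gene had more than 34 counts in a library, so that sum is near the floor. The atrial sum was mostly Nppa, which averaged 882 CPM in WT_TAC and 222 in WT_NS. Myl4 (24.4 against 33.6 CPM), Myl7 (3.53 against 6.49) and Sln (0.219 against 0.573) had lower means in WT_TAC than in WT_NS. None of the 3 was called there (SE 1.36 to 1.55 on the log2 scale, edgeR adjusted p = 0.782 to 0.950). Myl4 ran from 36 to 1629 counts per library and Myl7 from 0 to 276. These 3 genes and Nppa had higher means in Alox5ko_TAC than in Alox5ko_NS, none called (edgeR adjusted p = 0.155 to 0.809). The part of these sums and of the mitochondrial share in the values of Pi16 and the other 8 was not tested.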

How the data were processed

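RNA-seq was measured in 12 libraries, 3 in each of 4 groups, grouped by the genotype and treatment in the labels. Per the labels, polyadenylated RNA was made into directional libraries and sequenced as read pairs. The submitters' processing notes name HISAT2, DESeq2 and the builds GRCh38 and mm10, without role or version. The counting program, annotation and strand setting are not given in the sources used here. The authors deposited raw counts per gene symbol with the position and length of each gene, and RPKM values. All 336792 RPKM values compared were recomputed from the counts and lengths within 0.1%. The positions of 4 of the 9 genes equal those of GENCODE M21, so positions are given as deposited.

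The test was the quasi-likelihood F test of edgeR 4.0.16 (with limma 3.58.1, R 4.3.3), in a robust model of all 12 libraries that has 1 mean per group. Low genes were removed by filterByExpr (minimum count 10, minimum total 15), and TMM scaled the libraries. Benjamini-Hochberg adjustment ran over all 15542 genes, and a gene was called under 0.05. Every adjusted p comes from this test unless another tool is named, and "rose" or "fell" is written of called genes. The SE is the log2 fold change divided by the square root of F, and 95% intervals use the model's degrees of freedom. The fit was tested on simulated data with known folds. Totals of 20889431 to 27311196 counts and a common coefficient of variation of 0.107 set the precision, so that Tcf21, at 16 to 45 counts, is known less well than Gsn. Replicate libraries differed by more than counting noise (chi-square per gene 5.24 to 30.9).

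The 9 genes and all lists were chosen with earlier results of these data known. Named beside the 9 genes are, from each gene list, the called genes or up to 4 with the smallest p under the pooled TAC effect, and the 10 genes nearest to Pi16, leaving out predicted gene models and genes under a mean log2 CPM of 1. Mfap5 and Ctgf, the fifth called gene of each of their lists, and Postn, Myh6 and Nppa were named after their values were seen. Alternatives were other scalings, no low-count filter, DESeq2 1.42.0, fits to the compared libraries alone, a replicate block and leaving out each library. No column of per-sample values was left unused (0 columns).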

Additional observations from a re-analysis of the deposited data

How the results depend on the processing

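In both genotypes Pi16 kept its sign with TAC under every alternative run. With 1 library left out, its log2 fold change was 0.999 to 1.24 in Alox5ko, 1.29 to 1.67 in WT and 1.22 to 1.41 pooled. Its TAC minus NS difference from the other 8 genes was 0.90 to 1.09 in Alox5ko and 1.10 to 1.27 in WT. Against the summed CPM of the 8, of which Gsn was the largest part, it was 1.06 in Alox5ko and 1.42 in WT. By the mean log2 it was 1.001 and 1.17. Of 432 member values with 1 library left out, 366 kept sign and call, 52 changed sign, 6 gained a call and 8 lost one. The 27 member results that changed sign under any alternative had reported values of at most 0.26 in size. Clec3b pooled (0.00236) became -0.000433 with DESeq2 size factors, -0.00335 without the filter, -0.000429 under DESeq2 and -0.0139 with the block. In Alox5ko_NS vs WT_NS, Dpt became -0.0808 and Dcn -0.0698 by library totals alone, Dpt -0.00823 with the block and Pdgfra 0.00655 without the filter. With 1 library left out, the log2 fold changes that crossed 0 ran as follows, none called where the sign had changed (lowest adjusted p 0.159). In Alox5ko_TAC vs Alox5ko_NS, the ranges were Dpt -0.18 to 0.11, Clec3b -0.32 to 0.32, Tcf21 -0.51 to 0.27 and Gsn -0.0688 to 0.24. In WT_TAC vs WT_NS, the ranges were Dpt -0.0674 to 0.28, Tcf21 -0.0334 to 0.56 and Gsn -0.21 to 0.0374. Pooled over genotypes, the ranges were Dpt -0.0649 to 0.11, Clec3b -0.20 to 0.12, Tcf21 -0.16 to 0.25 and Gsn -0.0715 to 0.0816. In Alox5ko_TAC vs WT_TAC, the ranges were Dpt -0.34 to 0.00906, Clec3b -0.33 to 0.31, Pdgfra -0.26 to 0.0744, Tcf21 -0.62 to 0.16 and Gsn -0.0905 to 0.22. In Alox5ko_NS vs WT_NS, the ranges were Pi16 -0.14 to 0.0174, Dpt -0.16 to 0.12, Pdgfra -0.0562 to 0.0517, Tcf21 -0.14 to 0.46, Dcn -0.0394 to 0.0958 and Gsn -0.15 to 0.0123. For the interaction, the ranges were Dpt -0.35 to 0.00495, Clec3b -0.23 to 0.41, Pdgfra -0.25 to 0.0811, Tcf21 -0.71 to 0.0721 and Lum -0.39 to 0.0631.

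The counts of called genes moved more. Without the filter they were 756 for Alox5ko_TAC vs Alox5ko_NS (209 in the fit as reported), 538 for WT_TAC vs WT_NS (119), 1331 pooled (792), 252 for Alox5ko_TAC vs WT_TAC (17), 116 for Alox5ko_NS vs WT_NS (6) and 83 for the interaction (0). Under DESeq2 they were 373, 285, 59, 24 and 1 in the same order without the pooled effect. Fitted to the compared libraries alone they were 215 for WT_TAC vs WT_NS, 39 for Alox5ko_TAC vs WT_TAC and 18 for Alox5ko_NS vs WT_NS. With 1 library left out they ran, in the order of the counts without the filter, over 60 to 379, 17 to 95, 407 to 990, 10 to 27, 2 to 7 and 0 to 1. The cause was not tested. Replicate numbers recur in each group, but same-numbered libraries did not deviate together (12 pairs, correlations -0.106 to 0.0898, 0 over 0.1), so the numbers were not taken as pairs. With the replicate block the counts were 170, 110, 773, 21, 6 and 0, and no call of the 9 genes changed. Of the genes called in the lists, Thbs4 lost its call with the block (adjusted p = 0.0642), and Mfap5 (0.0740), Ctgf (0.0567) and Bgn (0.0738) lost theirs without the filter. Under the pooled TAC effect, DESeq2 gave the resident list 9 calls and the activated list 10. Its count over all genes for that effect is not given here, so these calls have no background. Without the filter the resident list had 8, where 1331 genes were called over the whole table (792 in the fit as reported).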
